A study of Mus musculus with 6 samples.

Results

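The 3 mature oocytes of Ago2 conditional knockout mice were described here on their own. They make up 3 of the 6 samples of the series and were taken by genotype and stage as the labels give them. Each was a single cell, hybridised to its own Applied Biosystems V2.0 mouse array of 33012 probes, and they are called oocytes 1, 2 and 3 below. The females were [Ago2F/F, Zp3-Cre]: both Ago2 alleles were floxed, and Cre was driven by the Zp3 promoter, which acts in growing oocytes. According to the methods, mature oocytes were ovulated metaphase II cells from the oviducts of adult females, freed of cumulus cells with hyaluronidase. The study also describes embryos of such females in which the floxed allele had escaped deletion. No source says whether the oocytes came from different females, so the spread between them may be that of a single animal, and it includes the amplification of cDNA from a single cell.

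A fully grown mouse oocyte lives on messages made earlier. Transcription stops before meiosis resumes, and from then on proteins come from stored mRNA whose poly(A) tails are lengthened or shortened. The mature egg waits at metaphase II with its spindle held, and much of its maternal mRNA is removed around that time. Argonaute proteins bind small RNAs and use them to silence matching transcripts, and Ago2 is the family member that can cut its target.

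The targeted gene was examined first. The single Ago2 probe gave signal-to-noise scores of -0.48, 1.20 and -0.96 in oocytes 1, 2 and 3, below the limit of 3 at which a probe was called detected. Its quantile-normalized log2 signals were 6.67, 6.49 and 6.94, close to the median of undetected probes, which ranged from 6.99 to 7.07. Where this probe lies relative to the floxed exons was not known, so a low signal does not show whether the allele was deleted. The sole probe of Ago1, a slicer-deficient relative, was undetected as well, at log2 signals of 6.63, 7.001 and 7.87. Ago4 was missed in oocyte 1, where its score was 2.15, and was found in oocytes 2 and 3 at scores of 12.30 and 8.96.

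Genes taken as oocyte markers were read next. All 4 genes taken as markers of the mature oocyte were detected in every oocyte. Krt8 also stands in the list of zygotic and pluripotency genes used below, and Mt1 in that of antioxidant genes. Detection of these genes alone does not settle the cell type. Btg4, the adaptor that brings the CCR4-NOT deadenylase to maternal mRNA, had log2 signals of 20.54, 20.43 and 20.74 (mean 20.57 ± 0.15, SD, n = 3). Mt1, a metal-binding metallothionein, gave 19.43, 18.64 and 19.66 (19.24 ± 0.54). Krt8, an intermediate filament protein, gave 17.99, 18.78 and 17.69 (18.15 ± 0.56). Zp3, the zona pellucida glycoprotein whose promoter drives the Cre transgene, gave 12.88, 13.52 and 13.54 (13.31 ± 0.37), and its score in oocyte 1 was only 3.89 against 18.72 and 21.59 in the others. Of 17 general oocyte markers, 14 had a named probe and 10 of these were detected in all 3 oocytes. Zp2, Kit and Tle6 were detected in none, and Mos in oocytes 2 and 3. These are markers of oocytes in general and do not set the stage.

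The promoters of both genes are shown as reference sequence (RefSeq, GRCm38.p6), Zp3 because it drives the transgene that defines these oocytes and Mt1 because this marker of the cells has a promoter with a well-known element. Each runs from 250 bases before the gene's start to 50 after it. The array data do not bear on where any factor binds, so the marked letters are a description of sequence. In the Zp3 promoter, on the plus strand at chr5:135979855-135980154, capitals mark CANNTG, the E-box read by basic helix-loop-helix factors. This motif reads the same on both strands, and its 4 matches do not overlap. Of 32851 promoters of the same length, 72.3% held at least 1 CANNTG and 6.49% held as many as Zp3.
Zp3: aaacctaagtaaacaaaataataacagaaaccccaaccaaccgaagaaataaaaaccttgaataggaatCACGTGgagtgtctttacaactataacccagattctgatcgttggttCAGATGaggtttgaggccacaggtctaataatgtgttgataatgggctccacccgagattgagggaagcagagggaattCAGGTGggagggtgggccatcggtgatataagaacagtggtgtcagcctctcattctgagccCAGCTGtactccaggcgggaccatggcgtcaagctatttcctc
In the Mt1 promoter, on the plus strand at chr8:94178839-94179138, capitals mark TGCNCNC, the core of the metal response element, searched on both strands. Its 3 matches all lay on the printed strand and do not overlap. A match was present in 51.0% of the promoters, and 7.10% held as many as Mt1.
Mt1: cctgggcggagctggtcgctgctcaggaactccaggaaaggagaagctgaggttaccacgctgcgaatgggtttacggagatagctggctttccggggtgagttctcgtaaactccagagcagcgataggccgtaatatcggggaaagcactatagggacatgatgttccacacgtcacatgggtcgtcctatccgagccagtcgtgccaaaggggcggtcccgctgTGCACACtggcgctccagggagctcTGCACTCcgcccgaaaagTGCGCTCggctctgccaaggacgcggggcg

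Oocyte 1 stood apart from the others in how many probes it detected. It had 4620 probes at a signal-to-noise score of at least 3, against 6661 in oocyte 2 and 6798 in oocyte 3 (mean 6026 ± 1220, SD, n = 3). Of the probes found in both other oocytes, oocyte 1 found 66.6%, whereas oocyte 2 found 92.9% and oocyte 3 found 91.9% of theirs. The median signal of its array before normalization was 255, against 258 and 168 for the others, and that of its undetected probes was 231, against 220 and 145. The median score of its detected probes was 5.96, lower than 7.70 and 7.32. Less RNA in the cell and less RNA carried through extraction and amplification cannot be told apart here. Counts below that need detection in all 3 oocytes are therefore also given without oocyte 1 where that moves them by over 1.5 times.

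**Figure D1:**
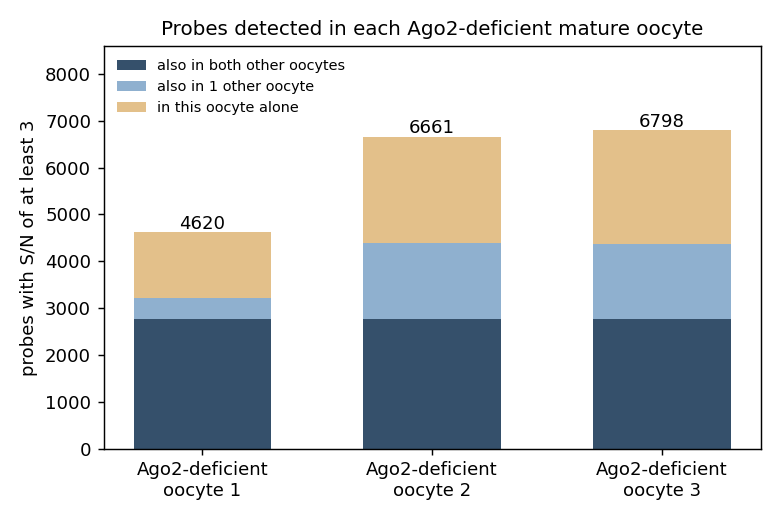
Bars show the number of probes (y axis) with a signal-to-noise score of at least 3 in each single oocyte (x axis), split by whether the other oocytes detected them too. Oocyte 1 detected 4620 probes against 6661 and 6798, and the same 2765 probes form the base of every bar.

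The transcriptome shared by the oocytes was small compared with what any of them detected. Of the 33012 probes, 2765 (8.38%) were detected in all 3 oocytes, 1839 in exactly 2, 6106 in exactly 1 and 22302 in none. Thus 57.0% of the 10710 probes detected anywhere were seen in a single oocyte and 25.8% in every one. Oocyte 1 held 1401 probes that no other oocyte detected, oocyte 2 held 2267 and oocyte 3 held 2438. The shared probes nevertheless carried 84.2%, 92.0% and 91.6% of all deposited signal on the 3 arrays. The brightest 100 of them alone carried 50.2%, 48.0% and 49.2%.

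Of the 2765 shared probes, 1533 had a single gene symbol and the others had none or several. They gave 1513 named genes, which is 10.9% of the 13840 genes named on the array, while 62.9% of named genes were detected in no oocyte. Of the 5141 named genes detected in any oocyte, 29.4% were detected in all 3. Without oocyte 1, 4150 probes and 2258 named genes were shared, the latter 16.3% of those on the array. Unnamed probes were among the brightest too, since only 10 of the brightest 20 probes and 53 of the brightest 100 carried a single symbol. The limit itself was a narrow one. Olfr513 and Tpd52 lay just inside it with a lowest score of 3.00 each, and Olfr143 with 3.01. C130026I21Rik and Timm10, at a lowest score of 2.99, and Tfcp2, at 2.98, lay just outside. Olfr513 had log2 signals of 10.47, 10.55 and 10.31, and Timm10, left out for oocyte 1 alone, had 9.996, 10.54 and 10.78.

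Genes were ranked by the mean log2 signal of their brightest shared probe. Probes differ in affinity, so the rank orders signals and not numbers of molecules. For 20 genes more than one probe was shared, and these probes differed by a median of 1.09 on the log2 scale, from 0.07 for Zfp106 to 6.07 for Hmgn1. The second Mt1 probe read 15.93 where the first read 19.24. Of 122 genes with several probes and at least 1 of them shared, 74 had another probe detected in no oocyte. Mtrr, Snx2, Cks2 and Mad2l1, named below, were among them, and only their brighter probe is given. Near-identical copies, such as tubulins, ribosomal protein pseudogenes and the Obox and Oog clusters, may share a probe's signal.

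Genes of quite different roles stood among the brightest 20 named genes. Tuba1c, an alpha-tubulin, ranked first with log2 signals of 20.74, 20.61 and 20.54 (20.63 ± 0.10). Btg4 came soon after, at rank 3. Fbxo22, a substrate receptor of an SCF ubiquitin ligase, gave 20.61, 20.38 and 20.69 (20.56 ± 0.16). Then came a pair that acts at the metaphase to anaphase transition. Pttg1, which encodes securin, the inhibitor of separase, gave 19.98, 20.23 and 20.35 (20.19 ± 0.19). Ube2c, the ubiquitin-conjugating enzyme of the anaphase-promoting complex, gave 20.23, 19.81 and 20.11 (20.05 ± 0.21). The oocyte linker histone H1f8 gave 19.52, 19.60 and 20.05, and H3f3a, which encodes the replacement histone H3.3, gave 19.71, 19.46 and 19.81. All of these lay within a range of 1 log2 unit between oocytes.

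Several of the 20 are known as oocyte genes. Obox1, an oocyte homeobox gene, gave 19.34, 19.71 and 20.43 and was brightest in oocyte 3. Gdf9, the growth factor by which the oocyte acts on its granulosa cells, gave 19.23, 19.17 and 19.60. Nlrp14, an oocyte member of the NLR family, was among the steadiest of the brightest 20, at 18.93, 19.03 and 18.98 (18.98 ± 0.05). Zbed3, which encodes a partner of the subcortical maternal complex, gave 18.54, 19.09 and 19.52. Bcl2l10, a BCL2 family gene, gave 18.38, 18.66 and 19.49 and had the widest spread of the 20 (SD 0.58). The homeobox gene Cphx1 gave 19.06, 19.06 and 18.64.

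Some genes known from other tissues were as bright. Olfr1449, annotated as an olfactory receptor, ranked 2 at 20.43, 20.93 and 20.38 (20.58 ± 0.30), with scores between 34.6 and 49.2. Its spot in oocyte 2 carried flag code 4, as did the Btg4 spot there. The sources do not explain this code. It stood on 5 spots of oocyte 2 and 1 of oocyte 3, at log2 signals of at least 20.05. Tnni3, which encodes cardiac troponin I, ranked 10 at 19.30, 19.98 and 19.09. Both were brightest in oocyte 2. What these probes bind was not tested, since the files hold no probe sequences. The remaining genes of the 20 were Mtrr, a reductase that keeps methionine synthase active (19.29 ± 0.16), the autophagy regulator Rubcn (19.03 ± 0.24), Fam241b (19.27 ± 0.15) and Cdv3 (19.02 ± 0.07).

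**Figure D2:**
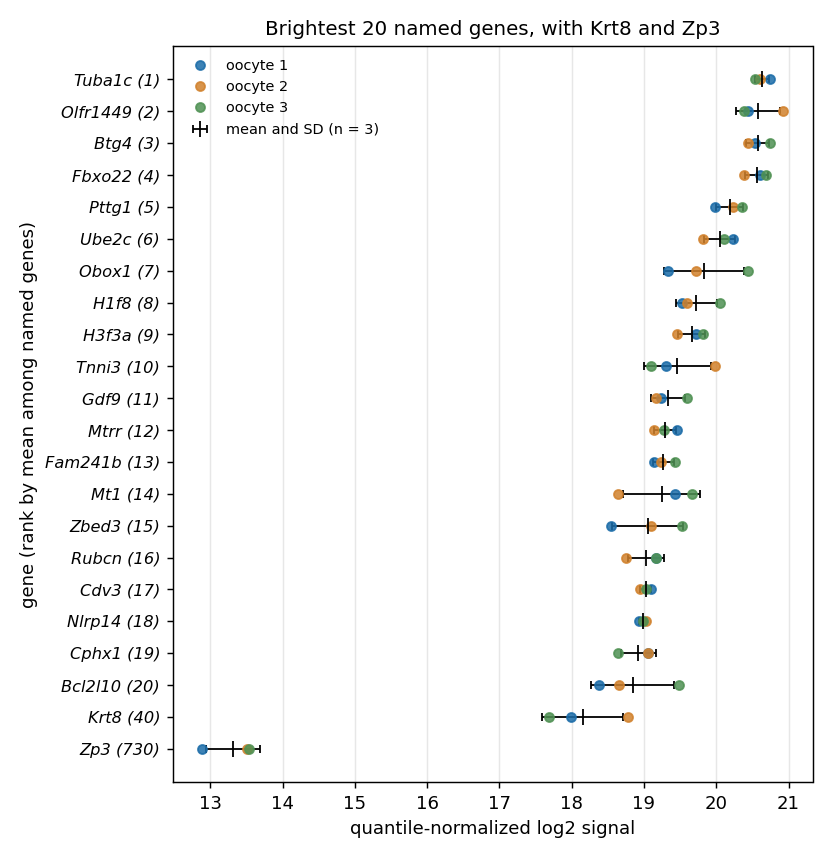
Quantile-normalized log2 signal (x axis) of the brightest 20 named genes and of the markers Krt8 and Zp3 (y axis, rank in brackets), with a point for each oocyte and the mean and SD (n = 3) in black. The brightest 20 lie between 18.84 and 20.63 in the mean, and Zp3 lies at 13.31.

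Products of the oocyte that act on or around it were bright with gaps. Of 11 zona pellucida and oocyte-secreted genes on the array, 5 were detected in all 3 oocytes (45.5%, beside 10.9% of all named genes). A further 1 was detected in 2, 1 in 1 and 4 in none (36.4%, beside 62.9%). Zp1, a zona glycoprotein, gave log2 signals of 17.41, 17.01 and 16.11 (16.85 ± 0.66). Oosp1, an oocyte-secreted protein, gave 16.07, 16.23 and 17.21 (16.50 ± 0.62). Zp1 was lowest in oocyte 3, and Oosp1 was highest there. Bmp15, the paralog and partner of Gdf9, was near the limit at 11.47, 9.80 and 10.08, with scores from 3.72 to 4.66. Zp2, the third zona gene with a probe, had scores below 0 in every oocyte and log2 signals of 7.75, 7.16 and 7.11, although it is known as an abundant oocyte transcript. An undetected probe is not evidence that the transcript is absent.

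Maternal effect genes, whose products the embryo needs before its own genome is read, held 8 of 19 members detected in all oocytes (42.1%, beside 10.9% of all named genes). Of the brightest 100 named genes, 5 came from this list. Npm2, the nucleoplasmin that remodels sperm chromatin, gave 18.73, 18.53 and 18.89 (18.71 ± 0.18). Nlrp5, a core gene of the subcortical maternal complex, gave 17.83, 17.88 and 17.56 (17.75 ± 0.17). Padi6, needed for the cytoplasmic lattices, gave 18.20, 17.46 and 17.43. Nlrp5 and Npm2 kept within a range of 0.4 log2 units, and Padi6 was highest in oocyte 1. Dppa3, which shields maternal DNA methylation, was lower at 13.73, 14.12 and 15.04. Dnmt3a, Smarca4, Tle6 and Ube2a were detected in no oocyte. The count depended on oocyte 1, which detected 8 members where oocyte 2 detected 12 and oocyte 3 detected 15. It rose to 12 of 19 without oocyte 1 (63.2%, beside 16.3% of all named genes).

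Oocyte-enriched transcripts gave 11 of 24 in all oocytes (45.8%). Obox and Oog genes were an all-or-none group, with 5 of 7 in every oocyte (71.4%, beside 10.9% of all named genes). The other 2, Obox6 and Oog4, were detected in none (28.6%, beside 62.9%). Oog1, a leucine-rich repeat gene of oocytes, gave 16.17, 16.51 and 17.31. Oog3, from the same cluster, gave 16.17, 16.77 and 17.23. All 5 detected members of this family were highest in oocyte 3, as were 665 of the 1513 named genes (44.0%), and their probes may not be separate measurements where copies are near-identical. The transcription factor gene Nobox gave 16.55, 16.07 and 15.66, whereas Figla, Sohlh2 and Ddx4 were not detected in any oocyte. Of the 5 genes of the Tcl1 family, 0 were detected in all oocytes and 2 in none, and oocyte 1 detected 0.

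Genes of meiotic maturation and M phase ranged from very bright to undetected. Of 27 on the array, 7 were detected in all oocytes (25.9%), 3 in 2, 7 in 1 and 10 in none (37.0%, beside 62.9% of all named genes). Besides Pttg1, the brightest was Fbxo5, whose product Emi1 restrains the anaphase-promoting complex, at 17.57, 17.59 and 18.21 (17.79 ± 0.37). The phosphatase gene Cdc25a, which activates Cdk1, gave 15.05, 15.44 and 15.70. Cks2, which encodes a Cdk-binding subunit needed in meiosis, gave 14.50, 15.13 and 15.70. These genes shared an order. The mitotic kinase gene Plk1 gave 14.32, 15.04 and 15.53. Cdc20, the activator of the anaphase-promoting complex, gave 13.34, 13.73 and 14.27. The spindle checkpoint gene Mad2l1 gave 10.66, 11.25 and 12.68. All 7 members were lowest in oocyte 1 and highest in oocyte 3, an order held by 461 of the 1513 named genes (30.5%). The order was noticed after the values were seen. Cdk1, Ccnb2, Aurka, Aurkc, Bub1 and Bub3 were among the undetected genes, and Mos, the kinase that holds metaphase II, was missed in oocyte 1 at 7.26 and found in the others at 10.55 and 10.50.

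Genes that store, polyadenylate or degrade mRNA held 9 of 36 members detected in all oocytes. Pabpn1, a nuclear poly(A)-binding protein, gave 17.84, 17.82 and 18.23 (17.96 ± 0.23). Pabpc4, its cytoplasmic counterpart, gave 16.73, 16.69 and 16.64 (16.68 ± 0.04). Both sat close together across oocytes, as did Btg4. Cpeb1, which controls cytoplasmic polyadenylation, and Pabpc1 were undetected throughout. The Argonaute and small RNA pathway was at the background rate, with 2 of 21 members in all oocytes (9.52%). No oocyte detected 12 (57.1%, beside 62.9% of all named genes). Tnrc6b, the GW182 scaffold that binds Argonautes, was clearly present at 15.36, 15.77 and 15.43 (15.52 ± 0.22). Ddx6, a helicase of mRNA storage and decay, was near the limit at 9.85, 10.89 and 9.996. Dicer1, which cuts small RNA precursors, was detected in oocyte 2 alone, with scores of 1.10, 5.29 and 2.64, and Drosha in oocyte 3 alone, with scores of 0.72, 2.29 and 15.18. Dgcr8, Xpo5, Tarbp2, Prkra and the piRNA pathway genes Piwil1, Piwil4, Mael, Tdrd1, Asz1 and Henmt1 stayed below the limit in each oocyte.

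Among gene families read from symbols, cytosolic ribosomal proteins were detected most often of those with at least 10 members, 31 of 61 in all oocytes (50.8%), and 12 stood among the brightest 500 named genes. A share of 3.61% of all named genes stood there. Rps12, of the small subunit, gave 18.29, 17.78 and 18.15 (18.07 ± 0.26). Rpl32, of the large subunit, gave 17.30, 17.25 and 17.40 (17.31 ± 0.08). Most of the family was not so bright, since the median of its 31 detected members was 12.81 beside 13.20 for all named genes detected in every oocyte. Some of it was missed outright, with 16 members detected in no oocyte (26.2%, beside 62.9% of all named genes). Without oocyte 1 the count was 36 of 61 (59.0%, beside 16.3% of all named genes). Mitochondrial ribosomal proteins gave 23 of 66 (34.8%) with a median of 12.13. Translation factors gave 17 of 54 (31.5%) and had the higher median of 14.54, with 9 among the brightest 500. Eif3i, a subunit of the initiation factor eIF3, gave 18.27, 18.16 and 18.55 (18.33 ± 0.20), and Eif2s2, a subunit of eIF2, gave 17.85, 17.57 and 17.83 (17.75 ± 0.16).

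Among genes of energy metabolism, those of the respiratory chain held the larger share of detected members. Respiratory chain and ATP synthase genes gave 26 of 67 (38.8%), with a median log2 signal of 13.28 and a median SD of 0.32. Cox7c, a subunit of cytochrome c oxidase, gave 17.08, 18.19 and 16.81 and was highest in oocyte 2. Cox8a, another subunit, gave 16.40, 16.12 and 16.33. Glycolysis, pyruvate and TCA cycle genes gave 5 of 31 in all oocytes (16.1%), namely Cs, Gapdh, Ldhb, Mdh2 and Ogdh. Citrate synthase, Cs, gave 17.33, 17.03 and 17.67 (17.35 ± 0.32). Ldhb, the lactate dehydrogenase subunit typical of oocytes, gave 16.12, 16.09 and 16.31 (16.17 ± 0.12), while Ldha was found in 2 oocytes. The glycolytic genes Hk1, Aldoa, Tpi1 and Pgam1 were detected in none.

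Protein turnover was led by a few members of large families. Ubiquitin and conjugating enzymes gave 11 of 31 (35.5%), among them Ube2c and Ube2e1, the latter nearly level across oocytes at 17.11, 17.07 and 17.03. F-box proteins gave 15 of 50 (30.0%), with Fbxo22 and Fbxo5 followed by Fbxw19, from an oocyte-expressed cluster, at 17.53, 17.37 and 17.57 (17.49 ± 0.10). Fbxw13, Fbxw14, Fbxw15, Fbxw16, Fbxw17, Fbxw20 and Fbxw21 were also detected in every oocyte. The proteasome gave 6 of 38 (15.8%, beside 10.9% of all named genes), and oocyte 1 detected 8 members against 16 and 17. Without oocyte 1, 13 were shared (34.2%, beside 16.3% of all named genes). Psma7, a core subunit, gave 16.11, 16.09 and 16.36. Histones gave 9 of 42 (21.4%), and 17 without oocyte 1 (40.5%). Of these genes, 9 were found in oocyte 1, 21 in oocyte 2 and 18 in oocyte 3. Tubulins gave 7 of 17 (41.2%), of which Tuba1c and the gamma-tubulin gene Tubg2 (15.42 ± 0.11) stood among the brightest 500.

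**Figure D3:**
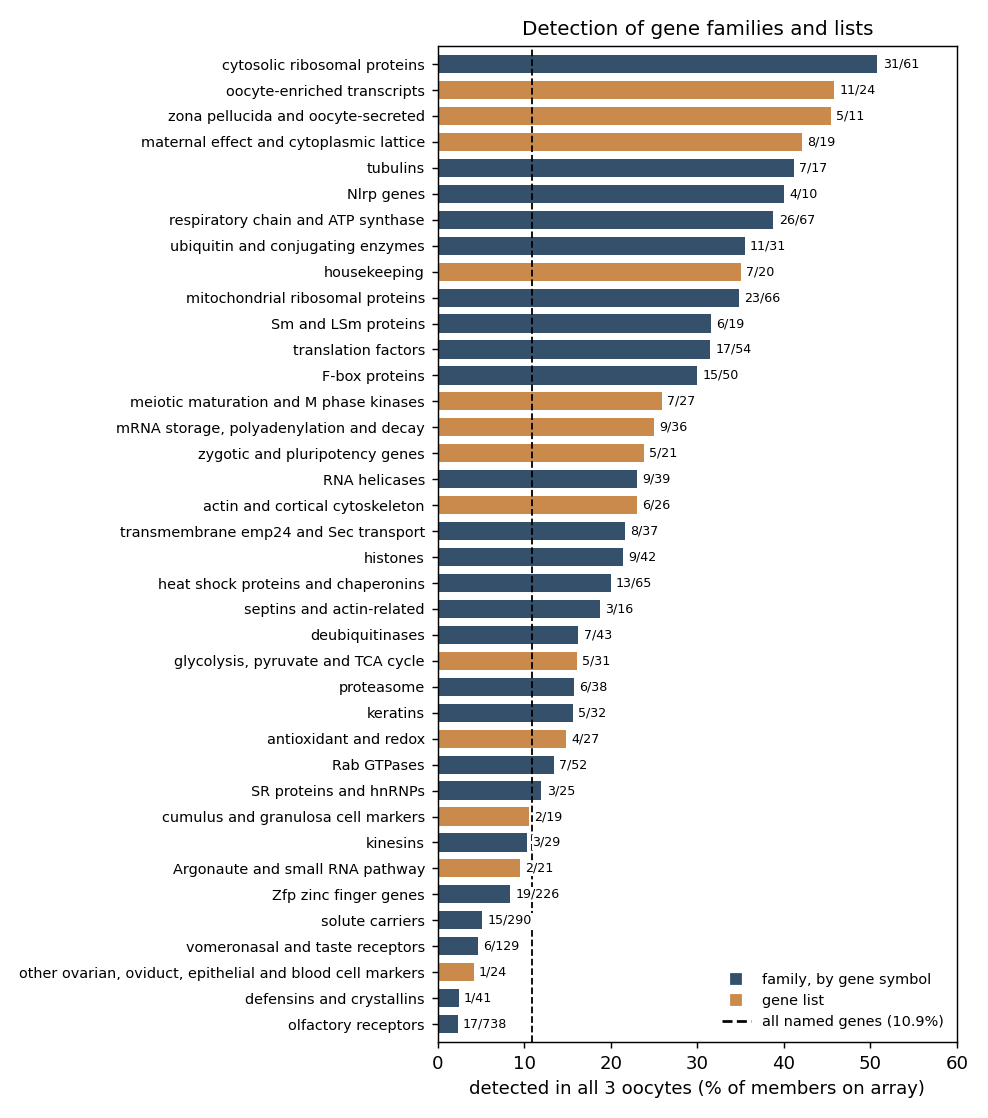
Share of members detected in all 3 oocytes (x axis, percent of members with a named probe) for each gene list and symbol family of at least 10 members, with counts beside the bars and the 10.9% of all named genes as a dashed line. Cytosolic ribosomal proteins reach 31 of 61, and olfactory receptors reach 17 of 738.

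Keratins were represented by Krt8 above all. Of 32 keratin genes on the array, 5 were detected in all oocytes (15.6%, beside 10.9% of all named genes). No oocyte detected 22 (68.8%, beside 62.9%). Krt71 and Krt84 were detected in all oocytes, at means of 13.90 and 13.41. Krt18, the usual filament partner of Krt8, was undetected with log2 signals of 6.55, 7.33 and 8.59. Of the 3 metallothioneins, Mt1 was detected throughout, Mt3 in oocytes 1 and 2 and Mt4 in none. Antioxidant and redox genes gave 4 of 27 (14.8%), and a further 7 were detected in 2 oocytes. Oocyte 1 found 5 where the others found 11 and 12. Without oocyte 1, 10 were shared (37.0%, beside 16.3% of all named genes). Among them the glutathione synthesis gene Gclm gave 16.19, 16.26 and 16.43 (16.29 ± 0.12). The actin cytoskeleton gave 6 of 26 (23.1%), led by Actg1 at 16.98, 16.56 and 16.44. Zygotic and pluripotency genes gave 5 of 21 (23.8%). Besides Krt8 they were Sall4, a zinc finger factor, at 16.53, 16.10 and 16.48 (16.37 ± 0.23), Dppa5a at 14.67, 14.44 and 14.52, Dppa2 and Utf1. Pou5f1 was undetected, with log2 signals of 6.74, 6.88 and 8.64.

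Housekeeping genes were detected more often than named genes in general, but unevenly. Of 20, 7 were detected in all oocytes and 5, among them Hprt, Tbp and Gusb, in none. Gapdh gave 16.83, 16.16 and 16.66 (16.55 ± 0.35). Ywhaz, a 14-3-3 adaptor, gave 17.13, 16.47 and 16.99. Actb was missed in oocyte 1 and lay at 9.15 and 9.10 in the others, just above the limit at scores of 3.03 and 5.16.

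Large families of receptors and carriers were detected in all oocytes at shares below the 10.9% of all named genes. Olfactory receptors gave 17 of 738 in all oocytes (2.30%), solute carriers 15 of 290 (5.17%), vomeronasal and taste receptors 6 of 129 (4.65%), and defensins and crystallins 1 of 41 (2.44%). Below Olfr1449, the brightest olfactory receptors were Olfr102 at 15.32, 16.07 and 14.99, and Olfr459 at 14.66, 15.47 and 14.18. The 17 detected receptors leaned to oocyte 2, in which 11 were highest, and none was highest in oocyte 3, where 665 of the 1513 named genes were highest. In no oocyte were 72.0% of olfactory receptors and 71.7% of solute carriers detected, beside 62.9% of all named genes. Of the olfactory receptors, 164 (22.2%) were each detected in 1 oocyte only, a share close to the 19.2% of all named genes. Without oocyte 1, the shared members numbered 35 olfactory receptors (4.74%), 27 solute carriers (9.31%), 10 vomeronasal and taste receptors (7.75%) and 5 defensins and crystallins (12.2%). The share of all named genes was then 16.3%.

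Follicle cell markers (cumulus and granulosa) were detected in all 3 oocytes about as often as named genes in general. Of 19 on the array, 2 were detected in all 3 oocytes (10.5%, beside 10.9% of all named genes) and 11 in none (57.9%, beside 62.9%). The 2 were Btc and Ereg. A shorter marker panel that held neither had 9 genes with a named probe. Of these, 0 were detected in all 3 oocytes, 3 in 1 and 6 in none. Of the 19, 6 were each detected in 1 oocyte only (31.6%, beside 19.2% of all named genes), though not all in the same one. They were Amhr2, Cyp11a1, Foxl2, Gja1, Inhba and Nr5a2. No oocyte detected Amh, Fshr, Inha, Has2, Star or Tnfaip6. Btc, an EGF-like growth factor of the cumulus response, gave log2 signals of 15.09, 13.16 and 13.84, and Ereg, a related factor, gave 11.03, 11.49 and 12.45. The summed linear signal of the list was 41187 in oocyte 1, 15045 in oocyte 2 and 24611 in oocyte 3, so it was highest where Btc was. Of 24 markers of other ovarian, oviduct, epithelial and blood cells, only Dcn, a matrix proteoglycan, was detected throughout, at 10.19, 9.66 and 12.10. Without oocyte 1, 2 were shared. No oocyte detected 18 of the 24, including Col1a1, Vim, Pecam1, Ptprc, Hba-a1, Ovgp1 and Epcam. The summed signal of the 24 was 16529, 13664 and 11846. The part of carried-over cells in the values of other genes was not tested.

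The spread between oocytes was smaller for bright probes than for dim ones. Over the 2765 shared probes, the median SD between oocytes was 0.44 on the log2 scale, with quartiles of 0.25 and 0.70. It depended on the scaling between arrays, and was 0.904 with arrays set to a common median of all probes and 0.841 with no scaling. With the probes cut by mean signal into 4 groups of equal size, from the dimmest to the brightest, the median SD was 0.76, 0.50, 0.35 and 0.26. An SD above 1 was found for 303 probes (10.96%), of which 222 lay in the dimmest group and 1 in the brightest. Signals centred on the shared probes but not quantile normalized gave median SDs of 0.57, 0.47, 0.37 and 0.30, so the fall with brightness was also present there, with a smaller range. A spread near the detection limit was bounded by the rule itself, since a probe that fell below the limit in any oocyte left the set.

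Across the 2765 shared probes, which share an array design and probe sequences, Pearson's r was 0.923 between oocytes 1 and 2, 0.908 between oocytes 1 and 3, and 0.939 between oocytes 2 and 3. Probes are not replicates, and these coefficients are descriptions. The median difference in size was 0.49, 0.54 and 0.48 log2 units for the same pairs, and 77.8%, 74.0% and 83.5% of probes lay within 1 log2 unit. Oocyte 1 was the one farthest from the mean of the others for 1093 probes (39.5%), oocyte 3 for 945 (34.2%) and oocyte 2 for 727 (26.3%). Where oocyte 1 was farthest, it lay below the others for 692 probes and above them for 400. Differences above 2 log2 units were found for 147, 185 and 41 probes, the fewest in the pair without oocyte 1.

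**Figure D4:**
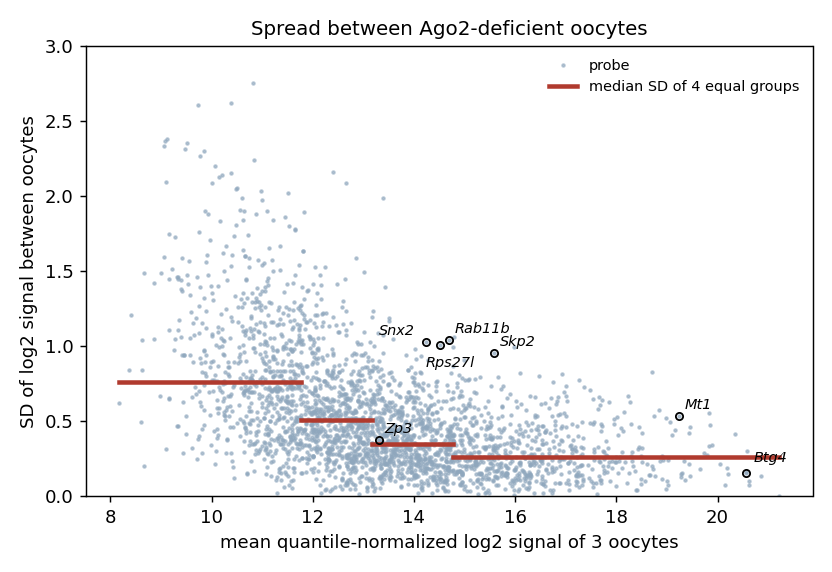
Each point is a probe detected in all 3 oocytes, with its mean quantile-normalized log2 signal on the x axis and the SD between oocytes on the y axis, and red lines give the median SD of each of 4 equal groups of probes by mean signal. The median SD falls from 0.76 to 0.26, while Rab11b, Snx2, Rps27l and Skp2 lie well above the probes around them.

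Among the brightest 500 named genes, where the median SD was 0.26, the largest spreads were near 1 log2 unit. Rab11b, a GTPase of recycling endosomes, gave 15.43, 15.16 and 13.51 and was low in oocyte 3. Its spot in oocyte 3 carried flag code 64, which the sources do not explain. Snx2, a sorting nexin, gave 13.46, 13.83 and 15.39 and was high there. Rps27l, a ribosomal protein-like gene, gave 13.41, 14.73 and 15.39. The odd oocyte thus differed from gene to gene. Skp2, the F-box protein of a cell cycle ubiquitin ligase, gave 15.57, 16.55 and 14.64. Kat2a, a histone acetyltransferase, gave 14.75, 15.99 and 14.22. Hrob, which acts in homologous recombination, gave 16.59, 17.85 and 16.34. These last genes were all highest in oocyte 2. Pcsk1n was highest in oocyte 1, at 15.31 against 13.81 and 13.69, and Atf4, a transcription factor of the stress response, was lowest in oocyte 3, at 15.30, 15.11 and 13.79. Tedc1 and Depdc7 were the others of the 10, with SDs of 0.87 and 0.81.

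The steadiest genes of the same 500 spanned many functions. Pfdn1, a prefoldin subunit, read 15.97, 15.99 and 15.98 (SD 0.01). Stard7, a phospholipid carrier to mitochondria, read 17.62, 17.59 and 17.62. Ctps, a synthase of CTP, read 16.57, 16.53 and 16.53. Vps35 of the retromer, the ubiquitin ligase gene Rnf8 and Eif4a3 of the exon junction complex had SDs of 0.02, 0.02 and 0.03. Cenpx, Zbtb8b, Trmt11 and Strbp completed the 10, with none above 0.04.

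Dropout, the failure to detect in some oocytes a probe seen in others, fell as signal rose. Among probes detected in both other oocytes at a mean log2 signal of 13 to 14, oocyte 1 found 98.2%, oocyte 2 found 100% and oocyte 3 found 99.8%. At 12 to 13 these shares were 82.2%, 98.6% and 97.99%. They fell to 54.7%, 91.8% and 90.7% at 11 to 12, and to 30.8%, 78.8% and 75.6% at 10 to 11. Below 9 they were 8.72%, 53.2% and 38.4%. In each of these steps oocyte 1 found the smallest share, although the sets differ, since those for oocytes 2 and 3 hold only probes that oocyte 1 detected. Above 14 each oocyte found at least 99.7%.

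**Figure D5:**
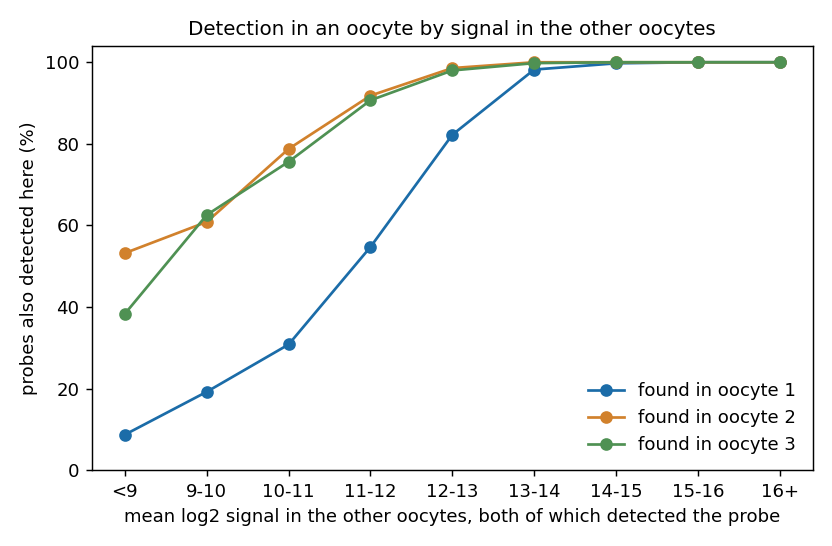
Share of probes detected in an oocyte (y axis, percent) among those both other oocytes detected, by the mean log2 signal in those others (x axis, in steps of 1 log2 unit). Oocyte 1 finds 54.7% at 11 to 12, where oocytes 2 and 3 find 91.8% and 90.7%, and the curves meet above 14.

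Of the 1839 probes detected in exactly 2 oocytes, 1385 were missed in oocyte 1 alone, 210 in oocyte 2 alone and 244 in oocyte 3 alone. Some misses were narrow and more were not. In oocyte 1 the missed probes lay a median of 2.64 log2 units below the mean of the others, 615 of them (44.4%) had a score under 1, and 347 (25.1%) had a score between 2 and 3. In oocyte 2 the gap was 2.61 and in oocyte 3 it was 2.45, scores under 1 made up 51.4% and 48.8%, and scores between 2 and 3 made up 22.4% and 29.9%. A gap under 1 log2 unit was found for 157, 29 and 42 probes.

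The 4 brightest named misses of oocyte 1 had scores between 2.20 and 2.82. Rbbp7, a histone-binding chaperone, gave log2 signals of 11.22, 15.24 and 12.37 with a score of 2.20 in oocyte 1. Atic, an enzyme of purine synthesis, gave 11.41, 12.96 and 13.29 with a score of 2.82 there. The transcription factor gene Tcf4 and Gse1 had scores of 2.37 and 2.65. Those of the other oocytes ran from below 0 to close under the limit. Mrpl35, a mitochondrial ribosomal protein, gave 14.19, 6.80 and 11.43, at a score of 0.75 in oocyte 2. Slc23a3 gave 12.74, 7.39 and 13.05. Neurog3 and Susd4 were missed there at scores of 2.90 and 1.94. Oocyte 3 missed Dcun1d4, which acts in neddylation, at 6.28 where the others gave 11.65 and 13.28. It missed Hoxd9 at 7.46 against 13.31 and 12.01, with a score of 2.49, and Dstyk at 7.33 against 12.35 and 12.40. Mfng was missed at a score of 2.82. Some of the detected spots behind these values carried flag code 64, which the sources do not explain. They were those of Rbbp7 in oocyte 2, Atic in oocyte 3, Mrpl35 in oocyte 1 and Dcun1d4 in oocytes 1 and 2.

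Probes detected in a single oocyte were the most numerous class of detected probes, and some were strong. Tpst1, a tyrosine sulfating enzyme, gave 13.85, 7.14 and 7.46, with a score of 22.82 in oocyte 1. The highest single-oocyte values of Ppp1r1c, an inhibitor of protein phosphatase 1, and Sprr2e, a small proline-rich protein of skin, came from flagged spots of the kind left empty in the authors' series table. Ppp1r1c gave 6.23, 14.38 and 5.96, and Sprr2e gave 6.92, 6.26 and 14.70. With spots at flag codes of 5000 or more left out, neither of these spots would count as detected. The detecting spots of Tpst1, Edn1, Vmn1r201 and Lrrc8c carried a lower code, 64, which the sources do not explain. Rpl13a, a ribosomal protein gene, was detected only in oocyte 3, at 7.24, 7.78 and 12.65. Edn1, which encodes endothelin, was detected only in oocyte 1, at 12.75, 6.09 and 7.07. Vmn1r201, a vomeronasal receptor gene, was detected only in oocyte 2, at 6.15, 11.96 and 6.44. Mllt3 shows the other kind, a score of 39.37 in oocyte 3 with misses at 2.57 and 2.81 and log2 signals of 11.23, 9.98 and 12.45. The remaining genes chosen by the same rule were Sprr2f and Lrrc8c in oocyte 1, Cdkal1 and Tm7sf2 in oocyte 2 and Ptp4a1 in oocyte 3, with scores from 11.4 to 22.2. Oocyte differences and chance in the amplification of rare messages cannot be told apart with 1 array a cell.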

How the data were processed

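Single oocytes were measured on 1 array each, with DIG-labeled cRNA made from amplified cDNA. Software that turned scans into signals was not given in the sources used here. The deposited signal intensity was not scaled between arrays. It was deposited with a signal-to-noise score and flag codes that the sources do not explain. The authors also deposited log2 values quantile normalized over all 6 arrays of the series, which share their quantiles to within 0.0107, so the levels of the 3 oocytes depend on the other arrays. The same log2 values stood in the authors' series table, where 1212 cells of these arrays were empty, all at flag codes of 5000 or more. Spots with such codes were kept, and 14 of them were detected. Spots with lower codes, such as 4 and 64, were kept as well.

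A probe was detected at a score of at least 3. Of the probes, 14411 carried 1 gene symbol, 247 several and 18354 none, and 14402 matched the gene table (GRCm38.p6, RefSeq). A gene was given by its probe detected in most oocytes, then by the highest mean. The wild-type GV oocytes entered the values only through the deposited quantile normalization. No test was run, since there is 1 group. Precision is limited by 3 arrays. Values were computed in Python 3.11.15 with numpy 2.4.6 and pandas 2.3.3, and ranking, scaling and SDs were tested on simulated data.

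The oocytes, 13 gene lists and 32 symbol families were chosen with earlier results of these data known. A symbol pattern takes a few genes beside the family, such as Eef1aknmt and Psme3ip1. Genes named are the Argonautes, the 4 markers, the brightest 20, in each list or family up to 3 brightest and up to 2 undetected members (first by name), the 10 largest and 10 smallest SDs among the brightest 500, and for each oocyte 4 genes missed and 4 found by it alone. Other list members were named after their values were seen. Alternatives changed the scaling, the limit, flagged spots, the choice of probe and the oocytes used.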

Additional observations from a re-analysis of the deposited data

How the results depend on the processing

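Every alternative run shared at least 92 of the brightest 100 and 19 of the brightest 20 named genes with the ranking as reported. Cytosolic ribosomal proteins numbered 11 or 12 among the brightest 500. Not all of these runs could change the order. A common median, centring and no scaling differ only by a constant for each array, so they give the same order. A change of the limit leaves the log2 values as they were and can only add or drop genes. Counts of detection depended on the oocytes. Leaving out 1 oocyte gave between 2975 and 4150 probes shared by the others, beside 2765 over all 3, the highest without oocyte 1, and between 5159 and 5468 probes detected in some but not all, beside 7945. Fewer oocytes must share more by construction. A limit of 2 gave 12289 such probes and a limit of 5 gave 4122. The median SD of 0.436 became 0.502 at a limit of 2 and 0.370 at 5, and lay between 0.362 and 0.393 with 1 oocyte left out. It was 0.904 with arrays set to a common median of all probes and 0.841 with no scaling, against 0.428 with quantile normalization over the 3 arrays and 0.425 with arrays centred on shared probes. Centring, a common median and no scaling differ only by a constant for each array, so their SDs differ through those constants. Why the constants differed was not tested. Scaling without the other 3 arrays lowered the median of shared probes by about 1 log2 unit (-1.02 with quantiles, -1.001 otherwise) and left the ranking as above, so levels are read only within one scaling. No paired analysis was possible because the values come from 1 group and no test.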
